A study of Mus musculus with 8 samples.

Results

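The mitochondrial genome is copied and transcribed by a small set of proteins that are all encoded in the nucleus, and the transcripts of 10 of these genes were examined in muscle of old mice that carry a mutant form of the replicative helicase. The genes were Twnk, Polg, Polg2, Ssbp1, Tfam, Polrmt, Mgme1, Top1mt, Rnaseh1 and Dna2. They were chosen by name, each symbol was matched through GENCODE M21 to 1 Ensembl identifier, and all 10 were found among the 48328 genes of the deposited table. RNA came from the tibialis anterior, a fast muscle at the front of the lower hindlimb, of C57BL/6J mice at 24 months of age. There were 4 K320E-skm libraries, from mice whose skeletal muscle carries Twinkle with the K320E substitution, and 4 wild-type libraries. The promoter or Cre line behind the mutant protein is not given in the sources used here, nor whether any of the samples shared a litter. The labels carry a different number and sex letter for each of the 8 samples. By label each genotype had 2 males, and the rest were females. Values of single libraries are listed in the order of their numbers, 1 to 4.

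Mitochondrial DNA is copied by a compact replication fork. Twinkle unwinds the DNA, polymerase gamma copies it and a single-stranded DNA binding protein coats the strand that waits. The mitochondrial RNA polymerase both transcribes the genome and makes the primers from which copying starts, and TFAM bends DNA at the promoters and packs the whole genome into nucleoids. Nucleases then remove primers and flaps, and a topoisomerase relieves the twist. Dominant mutations in Twinkle cause mitochondrial DNA deletions in muscle, which is why this helicase is used to model the loss of intact mitochondrial genomes with age.

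The reference sequence shows which annotated transcript of the endogenous gene includes the mutated position. GENCODE M21 annotates 2 transcripts of Twnk. The long one, Twnk-201, has 685 codons and starts at position 45006558 of chromosome 19 (GRCm38, plus strand), and its codon 320 lies in exon 1, at chr19:45008087-45008089. It encodes lysine, the residue that K320E replaces. The short one, Twnk-202, starts upstream at 45005663 and has 230 codons, so it has no codon 320. The codon is shown in capitals in 33 coding bases of the reference, 5′ to 3′:
Twnk-201 codon 320: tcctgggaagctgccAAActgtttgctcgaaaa

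Twnk lies head to head with Mrpl43, a gene of the large mitochondrial ribosomal subunit on the minus strand (45004829 to 45006442). Between the annotated starts of Mrpl43 and of the long Twnk transcript lie 115 bases (chr19:45006443-45006557, GRCm38.p6, plus strand), of which 63.5% are G or C. They are shown because they separate the starts of the 2 genes, with matches to the ETS motif in capitals:
Twnk and Mrpl43: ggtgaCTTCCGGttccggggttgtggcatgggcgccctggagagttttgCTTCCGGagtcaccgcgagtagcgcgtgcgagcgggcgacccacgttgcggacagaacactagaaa
The ETS motif, CCGGAAG on either strand, is bound by GABP, a factor known to act on genes of mitochondrial biogenesis.

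Promoters from RefSeq (GRCm38.p6, 250 bases before to 50 after each start site) were matched for 8 of the 10 genes, with 9 start sites. The ETS motif was found in 6 of the 8, namely Twnk, Polg, Polg2, Ssbp1, Tfam and Polrmt, and in 8.86% of the 32851 promoters of the same length. For Twnk the window at the start of the long transcript held 2 matches and that of the short one 0. The NRF-1 motif, GCGCA, then any base, then GCGC, on either strand, was found in 2 of the 8, Polrmt and Dna2, and in 4.6% of all promoters, and it overlapped no ETS match. Both percentages count single promoters, while the 6 and the 2 count genes over all their start sites. The 5 matches outside Twnk lie within 47 bases before the RefSeq start site. They are shown in 30 bases each, on the strand that reads CCGGAAG, which is in capitals:
Ssbp1, chr6:40471410-40471439, plus: ggctccgtgcgCCGGAAGcgagccgctggc
Polg, chr7:79466293-79466322, minus: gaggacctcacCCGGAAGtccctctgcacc
Tfam, chr10:71238073-71238102, minus: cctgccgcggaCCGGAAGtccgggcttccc
Polrmt, chr10:79746606-79746635, plus: gttctgcgactgCCGGAAGcgctcttaggg
Polg2, chr11:106779548-106779577, plus: tagaccacgcccCCGGAAGagcgtcacccg
A match describes these letters and is not a measured binding site.

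Levels are given as FPKM, fragments per kilobase of transcript, relative to the mapped fragments of the library, so genes can be compared per length. In genes with 1 annotated transcript the lowest values fell on whole multiples of the worth of 1 fragment (within 0.1 fragment for 96% to 97% of the values between 1 and 10 fragments), which put the libraries at about 38500000 to 50100000 mapped fragments. Fast fibre markers summed to 32379.9 to 44054 FPKM across K320E-skm libraries and 42860.3 to 49020.2 FPKM across wild-type libraries, against 47.9 to 161 and 38.7 to 89.5 FPKM for slow fibre markers, with overlap (exact permutation p = 0.0571 for the fast sum). The fast myosin gene Myh4 had a listed value of 0 in 3 mutant libraries (numbers 2, 3 and 4) and 1 wild-type library (number 4), and read 2965 to 4357 FPKM in the others. Without Myh4 the fast fibre sums were 32379.9 to 41089 FPKM with the mutation and 42860.3 to 45484 FPKM without it and did not overlap (exact permutation p = 0.0286). These sums use the deposited values only, in which 9.59% of all 10521 tested genes were lower in K320E-skm without overlap. Summed markers of satellite cells, macrophages, endothelium, fibroblasts, adipocytes, red cells and Schwann cells overlapped between the genotypes. No marker was called, where 0.019% of all 10521 tested genes were. Log2 fold changes were above 0 for 8 of 8 macrophage, 6 of 7 slow fibre, 2 of 11 fast fibre, 1 of 6 fibroblast, 0 of 5 endothelial and 0 of 5 red cell markers. Of the tested markers of other types, 0 of 3 adipocyte, 1 of 3 Schwann cell and 1 of 1 satellite cell markers were above 0. The same held for 2152 of all 10521 tested genes. The part of these cell types in the results below was not tested. Transcripts of K320E-skm 4 went against its sex label (labelled male, with Xist at 10.2 FPKM and Ddx3y at 0.0117 FPKM), so the reported fit has no sex term; fits with the sex label were run as alternatives. In whole tissue, fewer cells of a type and less RNA per cell cannot be told apart.

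A large part of every library was RNA of the mitochondrial genome's own ribosomal genes, which the RNA polymerase of this machinery transcribes. mt-Rnr1 and mt-Rnr2 together took an estimated 49.8%, 43.4%, 46.5% and 38.3% of mapped fragments of the mutant libraries and 32.6%, 33.9%, 40.5% and 38.6% of the wild-type libraries. These averaged 44.5% ± 4.89 and 36.4% ± 3.74 (SD, n = 4 each), and the genotypes overlapped (exact two-sided permutation p = 0.0857). Whether mitochondrial rRNA was depleted during library preparation is not given in the sources used here. Fragments left for all other RNA came to about 22600000 to 25100000 in K320E-skm and 27600000 to 30400000 in wild-type libraries, without overlap (exact permutation p = 0.0286, the lowest value 4 against 4 can reach). These counts also depend on the depth of each library. Mapped fragments were about 38500000 to 47000000 in K320E-skm and 41200000 to 50100000 in wild-type libraries, with overlap. FPKM divide by all mapped fragments, so every other gene carries the difference in the share of the 2 ribosomal genes, and not in depth. That share overlapped between the genotypes, as given above. Over the 10521 tested genes the median log2 fold change stood at −0.14 in the deposited values, at 0.00 after the libraries were rescaled by their median ratio to a common reference, and at 0.01 when fragments of the 2 ribosomal genes were left out of the total. The median-ratio rescaling sets this median near 0 by design, so its 0.00 is not a result.

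**Figure D1:**
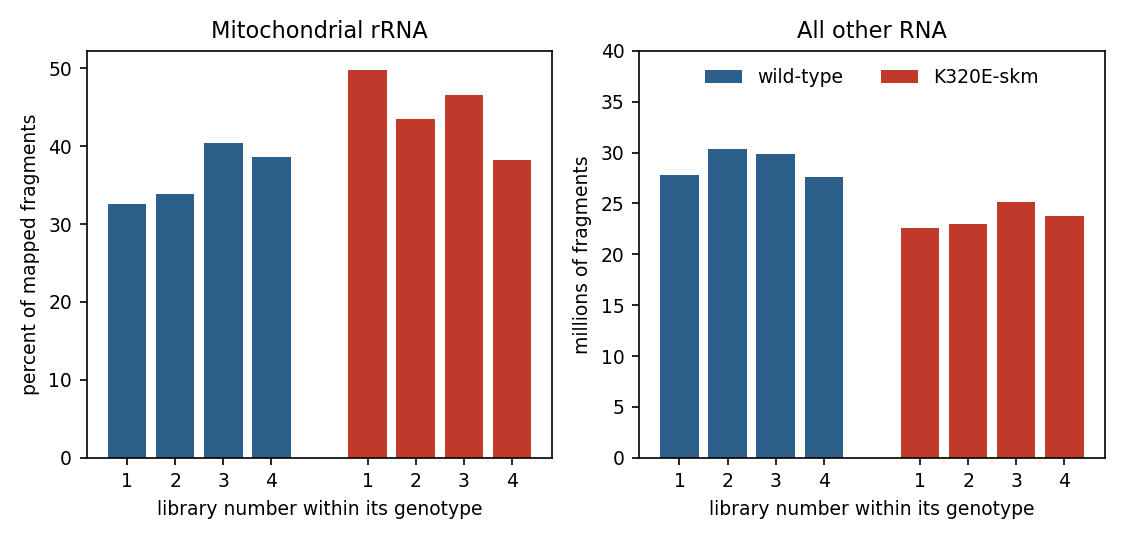
Estimated share of mapped fragments from the mitochondrial rRNA genes mt-Rnr1 and mt-Rnr2 (left, percent) and fragments of all other RNA (right) in each library, 1 bar per library. The share reached 49.8% in K320E-skm 1 and was 32.6% in wild-type 1, and the other fragments were fewer in all 4 K320E-skm libraries than in any wild-type library.

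In wild-type muscle the packaging and promoter factor Tfam was the most abundant of the 10 transcripts, at 14.5 ± 2.76 FPKM, followed by the single-stranded DNA binding protein Ssbp1 at 10.2 ± 1.21 FPKM and the catalytic polymerase subunit Polg at 6.03 ± 0.857 FPKM (SD, n = 4 for these and the following means). The RNA polymerase Polrmt was at 4.93 ± 0.632, the topoisomerase Top1mt at 3.39 ± 0.351, the exonuclease Mgme1 at 2.97 ± 0.142 and the helicase Twnk at 2.37 ± 0.245 FPKM. Rnaseh1, which removes RNA primers, was at 2.16 ± 0.239, the accessory polymerase subunit Polg2 at 1.01 ± 0.33 and the helicase-nuclease Dna2 at 0.195 ± 0.0955 FPKM. The ranges of neighbours in this order did not meet except for Polg and Polrmt, Top1mt and Mgme1, and Twnk and Rnaseh1. In K320E-skm muscle Twnk stood higher in the order, at the fifth place behind Polrmt, whose range it overlapped, and its range lay above that of Top1mt. By their means the other 9 genes stood in the same order in both genotypes. In K320E-skm muscle the ranges of neighbours overlapped from Tfam down to Twnk and from Top1mt down to Rnaseh1, and Mgme1 was above Rnaseh1 in 2 of 4 libraries.

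**Figure D2:**
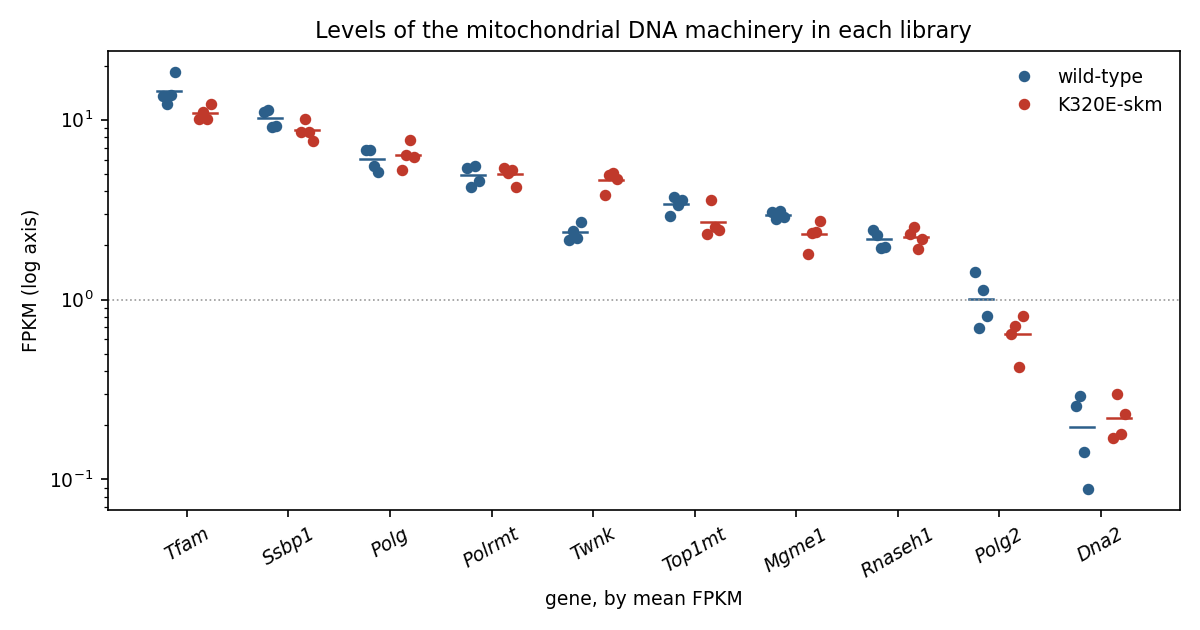
FPKM (log axis) of the 10 genes in each of the 8 libraries, ordered by their mean over all libraries. Points are libraries, short lines are the means of the 4 libraries of a genotype, and the dotted line marks 1 FPKM. Twnk is the gene whose K320E-skm points all lie above its wild-type points.

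The precision of these values follows from the fragments behind them. Approximate numbers, from the length of the main transcript and the depth of the library, ran from 1756 to 2785 fragments for Polg and from 1797 to 3329 for Tfam. They were 295 to 790 for Twnk, 108 to 136 for Rnaseh1, 26.5 to 78.4 for Polg2 and 15.7 to 53.2 for Dna2. Polg2 reached 1 FPKM in 2 libraries and Dna2 in 0, so these 2 genes stayed below the filter of the test across all genes (1 FPKM in at least 4 libraries) and 8 of the 10 were tested there.

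At the replication fork, the helicase transcript Twnk was higher in every K320E-skm library. It measured 3.82, 4.93, 5.06 and 4.66 FPKM in the mutant libraries and 2.16, 2.4, 2.21 and 2.7 FPKM in the wild-type libraries. The lowest K320E-skm library thus lay above the highest wild-type library, and the ratio of the means was 1.95 (exact permutation p = 0.0286). This level counts fragments of the endogenous gene and of any introduced copy together. On the scale of log2(FPKM + 1) the log2 fold change was 0.74 (SE 0.11, 95% interval 0.48 to 0.99), and 3 of the 10521 tested genes had a smaller p, but the adjusted p of limma over all tested genes was 0.182. With fragments of the mitochondrial rRNA genes left out of the total, a scaling chosen after seeing the data, Twnk passed the threshold of 0.05 (log2 fold change 0.89, SE 0.11, adjusted p = 0.0432). After median-ratio rescaling the log2 fold change was 0.87 and the adjusted p 0.0897.

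The level of Twnk relative to other transcripts was measured within each library, where the scaling of a library cancels apart from the pseudocount. Relative to the median tested gene, Twnk was at −0.05, 0.12, 0.28 and 0.15 (difference in log2(FPKM + 1)) in K320E-skm 1 to 4 and at −1.09, −0.71, −0.69 and −0.53 in wild-type 1 to 4. The genotypes did not overlap, with a difference of 0.88 (exact permutation p = 0.0286). Relative to Polg, its partner at the fork, Twnk averaged −0.39 ± 0.0941 with the mutation and −1.06 ± 0.253 without it, a difference of 0.67 without overlap (n = 4 each, exact permutation p = 0.0286). Relative to Mrpl43, its neighbour on the other strand, it was at −1.02 ± 0.213 and −1.84 ± 0.209, a difference of 0.82 without overlap (n = 4 each, exact permutation p = 0.0286). The 3 comparisons share the values of Twnk and are not independent, and each exact permutation p stays at 0.0286 after Benjamini-Hochberg adjustment over the 3.

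**Figure D3:**
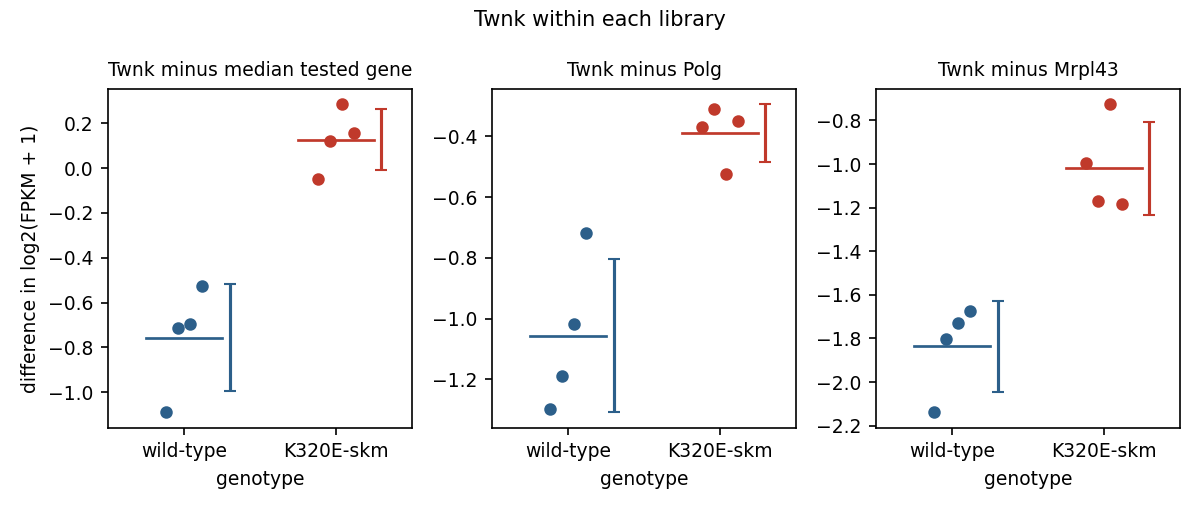
Twnk relative to the median tested gene, to Polg and to Mrpl43 within each library, as the difference in log2(FPKM + 1). Points are libraries, horizontal lines are means and bars are SD (n = 4 per genotype); each vertical axis has its own range. In all 3 panels the 4 K320E-skm libraries lie above the 4 wild-type libraries.

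Mrpl43 itself measured 8.63, 12.3, 9.03 and 11.9 FPKM in the mutant libraries and 12.9, 10.8, 9.64 and 10.8 FPKM in the wild-type libraries, and the genotypes overlapped (exact permutation p = 0.657). Its exons share 507 bases, 12.6% of the exonic bases of Twnk, with the short Twnk transcript, and none with the long one, which starts 115 bases beyond it. Gt(ROSA)26Sor, the non-coding gene of the Rosa26 locus into which transgenes are often placed, averaged 1.29 ± 0.276 FPKM with the mutation and 2.1 ± 0.534 FPKM without it (n = 4 each, exact permutation p = 0.0286; limma adjusted p = 0.289). The genotypes did not overlap as deposited, and did after median-ratio rescaling (exact permutation p = 0.229).

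For the subunits of polymerase gamma no difference between the genotypes passed a test. The catalytic subunit Polg measured 5.24, 6.36, 7.72 and 6.21 FPKM in the mutant libraries and 6.76, 6.75, 5.51 and 5.09 FPKM in the wild-type libraries, with genotypes that overlapped (exact permutation p = 0.629). Its log2 fold change was 0.07 (95% interval −0.24 to 0.37; limma adjusted p = 0.82). Polg2, the processivity subunit, measured 0.641, 0.713, 0.422 and 0.806 FPKM in the mutant libraries and 1.42, 0.69, 1.12 and 0.811 FPKM in the wild-type libraries, a ratio of means of 0.637 with overlap (exact permutation p = 0.114). The ratio of Polg to Polg2 ran from 7.7 to 18.3 with the mutation and from 4.75 to 9.78 without it, so the catalytic transcript was the more abundant one in all 8 libraries.

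The single-stranded DNA binding protein Ssbp1 measured 8.58, 10.1, 8.5 and 7.62 FPKM in the mutant libraries and 11.1, 11.3, 9.09 and 9.17 FPKM in the wild-type libraries. The highest K320E-skm library lay within the wild-type range (exact permutation p = 0.143), and limma gave a log2 fold change of −0.20 (adjusted p = 0.45), which became −0.04 on rescaled values (95% interval −0.25 to 0.18). The proportions of these transcripts within a library are given without a test. In wild-type libraries there were 3.4 to 5.14 FPKM of Ssbp1 and in K320E-skm libraries 1.63 to 2.24 FPKM for each FPKM of Twnk. For each FPKM of Polg there was 0.319 to 0.53 FPKM of Twnk in wild-type and 0.655 to 0.775 FPKM in K320E-skm libraries. Ssbp1 stood at 1.641 to 1.801 FPKM for each FPKM of Polg in wild-type and 1.101 to 1.639 FPKM in K320E-skm libraries.

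Among the proteins that start transcription and pack the genome, Tfam was lower in the K320E-skm mean, at 10.1, 11.1, 10.1 and 12.3 FPKM in K320E-skm 1 to 4 against 13.6, 12.2, 13.6 and 18.5 FPKM in wild-type 1 to 4. The highest K320E-skm and the lowest wild-type library overlapped narrowly (exact permutation p = 0.0571). In the deposited values its log2 fold change was −0.37 (SE 0.14, limma adjusted p = 0.298), and rescaled values gave −0.20 (SE 0.16, adjusted p = 0.704). Wild-type 4 had the highest level, and without it the log2 fold change was −0.25. The RNA polymerase Polrmt measured 5.41, 5.06, 5.26 and 4.21 FPKM in the mutant libraries and 5.38, 4.22, 5.54 and 4.57 FPKM in the wild-type libraries, with a log2 fold change of 0.01 (95% interval −0.25 to 0.28; limma adjusted p = 0.958). Its genotypes covered nearly the same range.

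Of the nucleases, Mgme1, which trims single-stranded ends during replication and in the removal of broken mitochondrial DNA, measured 1.79, 2.33, 2.37 and 2.73 FPKM in the mutant libraries and 3.07, 2.81, 3.1 and 2.89 FPKM in the wild-type libraries. All K320E-skm libraries lay below all wild-type libraries, at a ratio of means of 0.776 (exact permutation p = 0.0286). The log2 fold change was −0.27 (SE 0.11, limma adjusted p = 0.322). After median-ratio rescaling the genotypes overlapped and the ratio was 0.876 (exact permutation p = 0.229). Its start is overlapped by the sorting nexin gene Snx5 on the other strand, which averaged 14.5 ± 0.9 FPKM with the mutation and 17 ± 2.53 FPKM without it (n = 4 each, exact permutation p = 0.114). The strand setting of the counting is not given in the sources used here, so shared fragments cannot be assigned.

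Rnaseh1 measured 2.32, 2.54, 1.92 and 2.17 FPKM in the mutant libraries and 2.43, 2.28, 1.95 and 1.97 FPKM in the wild-type libraries, and the genotypes overlapped (exact permutation p = 0.686). In limma its log2 fold change was 0.04, and 0.16 on rescaled values (95% interval −0.01 to 0.33). Dna2, which acts in the nucleus as well, measured 0.17, 0.297, 0.179 and 0.231 FPKM in the mutant libraries and 0.257, 0.293, 0.143 and 0.0885 FPKM in the wild-type libraries (exact permutation p = 0.6). Its lowest library, wild-type 4, held about 15.7 fragments, for which counting error alone is 25.2%. The mitochondrial topoisomerase Top1mt measured 2.31, 3.56, 2.53 and 2.44 FPKM in the mutant libraries and 2.91, 3.72, 3.36 and 3.56 FPKM in the wild-type libraries. K320E-skm 2 lay within the wild-type range (exact permutation p = 0.114), and the log2 fold change was −0.25 (limma adjusted p = 0.386), or −0.12 after rescaling.

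Across the 8 tested members limma called 0 genes, where 0.019% of all tested genes were called, and 3 members (Twnk, Tfam and Mgme1) had an unadjusted p under 0.05, where 14.7% of all tested genes did. After median-ratio rescaling 1 member, Twnk, had an unadjusted p under 0.05, against a background of 9.79%, and 0 members were called, against 0.019%. With the ribosomal fragments left out 1 member, Twnk, was called, against 0.0285% of all tested genes, and 1 had an unadjusted p under 0.05, against 6.92%. As deposited 1 of the 8 was higher without overlap, where 0.333% of all tested genes were, and 1 was lower without overlap, where 9.59% were. After rescaling 1 was higher, against 2.91%, and 0 were lower, against 2.98%, and without ribosomal fragments these were 1, against 1.69%, and 0, against 1.97%. The 8 had a median of −0.09 in the deposited and 0.06 in the rescaled values, with 4 above 0 and 4 below 0 on both scales.

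**Figure D4:**
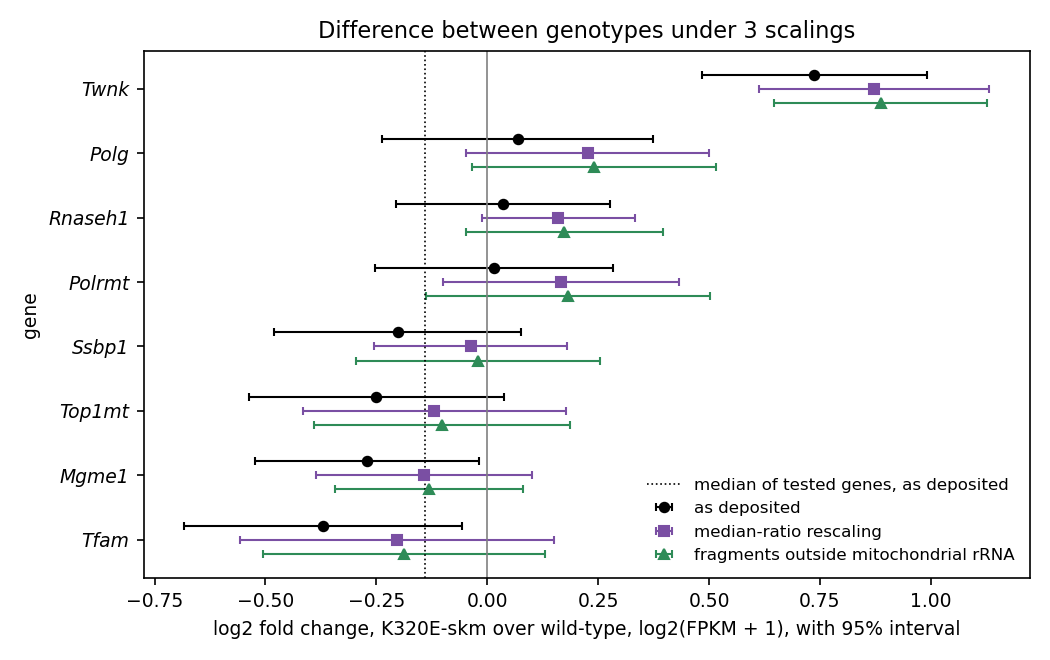
Log2 fold change of the 8 tested genes, K320E-skm over wild-type on the scale of log2(FPKM + 1), with 95% intervals from limma, as deposited, after median-ratio rescaling and with mitochondrial rRNA fragments left out of the total. The dotted line marks the median of all tested genes as deposited, −0.14; Twnk is the gene whose 3 intervals lie furthest above 0, and Tfam and Mgme1 have intervals below 0 as deposited that include 0 on the other scales.

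Genes that work beside these 10 were taken from lists fixed by function. After adjustment over all genes limma called none of them, where 0.019% of all tested genes were called. Of all 10521 tested genes, 14.7% had an unadjusted p under 0.05 as deposited and 9.79% after rescaling. Log2 fold changes were below 0 for 79.5% of them as deposited and 49.4% after rescaling, which centres the genes near 0 by design. In repair and topology of mitochondrial DNA, 12 of 18 listed genes were tested, with a median log2 fold change of −0.06, 3 above and 9 below 0, and 2 at an unadjusted p under 0.05. After rescaling the median was 0.07, with 9 above and 3 below 0, and 3 had an unadjusted p under 0.05. The most abundant were the repair polymerase Polb at 21.5 ± 2.82 against 25.6 ± 2.3 FPKM and Poldip2, a partner of DNA polymerases, at 22.4 ± 1.52 against 23.7 ± 1.55 FPKM (K320E-skm against wild-type, n = 4 each). The other transcription factors of mitochondria had 7 tested members, all with a log2 fold change below 0 as deposited (median −0.18). Of these, 2 were above 0 after rescaling (median −0.02). An unadjusted p under 0.05 was reached by 1 as deposited and by 0 after rescaling. Mterf3, known as a repressor of mitochondrial transcription, was at 6.14 ± 0.751 against 8.47 ± 1.38 FPKM without overlap (n = 4 each, exact permutation p = 0.0286; limma adjusted p = 0.289), and overlapped after rescaling (exact permutation p = 0.0857). Mrpl12, a ribosomal protein that also binds the RNA polymerase, was at 11.9 ± 2.39 against 15.3 ± 4.21 FPKM.

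The genes that process and stabilise mitochondrial RNA had a median change (log2) of −0.11 among 24 tested members as deposited and 0.02 after rescaling. Against 14.7% of all tested genes, 3 of these had an unadjusted p under 0.05 as deposited, and 4 did after rescaling, against 9.79%. Without overlap, 0 were higher and 2 lower as deposited, against 0.333% and 9.59% of all tested genes. After rescaling 3 were higher and 2 lower, against 2.91% and 2.98%. Their most abundant members were Slirp, a partner of the mRNA stabiliser LRPPRC, at 49.6 ± 8.44 against 53.3 ± 11.2 FPKM, and Fastk at 40.2 ± 4.86 against 38.2 ± 3.91 FPKM (n = 4 each). The genotypes of Fastk overlapped as deposited (exact permutation p = 0.571). After median-ratio rescaling Fastk was higher without overlap (exact permutation p = 0.0286, limma adjusted p = 0.431). Nucleoid-associated proteins had a median of 0.02 over 7 members, or 0.20 after rescaling, with 1 at an unadjusted p under 0.05. The prohibitin Phb was at 47.4 ± 3.93 against 44.9 ± 4.39 FPKM and Phb2 at 32.8 ± 2.85 against 32.3 ± 2.37 FPKM. Genes of general mitochondrial content, such as citrate synthase Cs at 105 ± 15.1 against 112 ± 13.9 FPKM and the outer membrane channel Vdac1 at 234 ± 26 against 291 ± 28.3 FPKM, had a median of −0.13 over 8 members as deposited and 0.05 after rescaling, and 0 had an unadjusted p under 0.05. Nuclear DNA replication genes had a median of −0.17 over 9 of 16 listed genes, or −0.02 after rescaling. An unadjusted p under 0.05 was reached by 0 as deposited and by 1 after rescaling (9.79% of all tested genes). Rpa1, which coats single-stranded nuclear DNA, was at 15.1 ± 1.14 against 17.8 ± 1.79 FPKM, and the sliding clamp Pcna at 7.52 ± 0.877 against 6.86 ± 1.74 FPKM. Pcna was the 1 after rescaling (log2 fold change 0.30, limma adjusted p = 0.461), and its genotypes overlapped on both scales.

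Regulators that are known to drive genes of this machinery had a median change (log2) of −0.10 among 10 tested members (0.02 after rescaling). An unadjusted p under 0.05 was reached by 1 as deposited (14.7% of all tested genes) and by 3 after rescaling (9.79%). The one as deposited was the coactivator Ppargc1a, at 19 ± 14.5 FPKM with the mutation and 8.53 ± 1.74 FPKM without it (n = 4 each, exact permutation p = 0.0571; limma adjusted p = 0.33). The mutant libraries measured 12.1, 40.7, 13.7 and 9.58 FPKM and the wild-type libraries 7.16, 10.6, 7.01 and 9.41 FPKM, so K320E-skm 2 stood far above the others. Without it the mutant mean was 11.8 ± 2.09 FPKM (n = 3). Its genotypes overlapped as deposited, and after median-ratio rescaling they did not (exact permutation p = 0.0286). The 2 that joined it after rescaling, named after their values were seen, were the related coactivator Pprc1 and the nuclear receptor Esrrg. Pprc1 was at 1.67 ± 0.205 against 1.43 ± 0.263 FPKM, overlapping as deposited and not after rescaling (n = 4 each, exact permutation p = 0.2 and 0.0286). Esrrg was at 4.51 ± 1.48 against 3.11 ± 0.778 FPKM, with overlap on both scales (n = 4 each, exact permutation p = 0.143). On rescaled values limma gave them adjusted p of 0.424 and 0.493. The nuclear receptor Esrra, with which Ppargc1a works, was at 14.9 ± 1.43 against 15 ± 4.5 FPKM.

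The products of mitochondrial transcription are given for context. The 13 mitochondrial mRNAs summed to 56407 ± 5897 FPKM with the mutation and 67514 ± 10086 FPKM without it, with overlap (n = 4 each, exact permutation p = 0.114). Their median change (log2) was −0.30, or −0.15 on rescaled values, 12 of 13 were below 0 as deposited and 11 after rescaling, and 1 had an unadjusted p under 0.05. Of all tested genes 79.5% were below 0 as deposited and 49.4% after rescaling, and 14.7% had an unadjusted p under 0.05 as deposited. The most abundant mitochondrial mRNAs by FPKM were mt-Atp8 at 14722 ± 2479 against 18795 ± 4751 and mt-Co1 at 12627 ± 2103 against 16199.7 ± 1527. mt-Atp8 spans only positions 7766 to 7969, close to the 161 to 171 bases subtracted from lengths in the depth estimate. Its FPKM is therefore sensitive to the length used, and it enters the sum above and the ratio below. The 2 rRNAs had log2 fold changes of 0.48 for mt-Rnr1 and 0.26 for mt-Rnr2 (limma adjusted p = 0.414 and 0.671). The ratio of summed rRNA to summed mRNA FPKM does not depend on the scaling of a library, and was computed after the values above were seen. It was 8.39, 5.68, 6.48 and 5.27 in K320E-skm 1 to 4 and 4.85, 3.43, 4.78 and 4.26 in wild-type 1 to 4, higher in all 4 K320E-skm libraries than in any wild-type library (exact permutation p = 0.0286). This ratio also depends on how far library preparation removed rRNA, which is not given, so transcription and preparation cannot be told apart here.

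The transcripts whose pattern was closest to that of Twnk were found by the root-mean-square difference between log2(FPKM + 1) values over the 8 libraries, each gene taken around its own mean. The 5 closest of 9599 tested protein-coding genes were the transcription factor Cebpb (difference 0.17), the survival gene Bcl2l1 (0.17), the glycogen branching enzyme Gbe1 (0.19), the endoplasmic reticulum stress sensor Ern1 (0.19) and the glucocorticoid-responsive Fkbp5 (0.20), where the median gene was at 0.50. Among the other members of the machinery the closest was Polg at 0.37, which ranked 532, and Tfam was the furthest at 0.57, which ranked 7903. This measure describes 8 libraries of 2 genotypes and carries no test.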

How the data were processed

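The authors deposited FPKM, in a table with 48328 Ensembl genes and 8 libraries. CASAVA, TopHat2 2.0.10, Cufflinks 2.1.1 and the build mm10 are named in the submitters' processing notes, and per the labels' protocols a stranded library kit was used. No annotation release or strand setting is given in the sources used here. GENCODE M21 (GRCm38) gave the symbols of 47864 IDs. All 8 columns were matched to a sample by name, and 0 pairs of libraries held identical values.

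The test across genes was limma 3.58.1 (R 4.3.3) applied to log2(FPKM + 1) (genotype only, empirical Bayes with a trend, two-sided, Benjamini-Hochberg, threshold 0.05) for the 10521 genes that reached 1 FPKM in 4 or more libraries. The pseudocount makes fold changes of low genes smaller. The fit was tested on simulated data. For a single value the test was an exact permutation, two-sided, over the 70 assignments of 4 against 4. Apart from the within-library comparisons of Twnk, these p were not adjusted for the number of values tested. Depth was estimated from genes of at least 1000 bases with 1 annotated transcript, by a line through the inverse FPKM of genes with 1 fragment against length, whose offset (161 to 171 bases) was subtracted from lengths. The share of mitochondrial rRNA is FPKM times this length. Fragment numbers of genes with several transcripts are approximate, and counting error covers fragments, which need not be independent molecules.

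Members, lists and tests were chosen with earlier results of these data known. Named genes were the 10 members, genes overlapping them, Gt(ROSA)26Sor, the 2 most abundant genes of each list where no gene was called, and the 5 genes most like Twnk. The overlapping genes Fanci, Milr1 and Gm15945 were all under 1 FPKM. Acta1, Cdh15, Mtres1 and Prorp of the lists were not analysed here. Leaving out mitochondrial rRNA fragments and 2 of 3 fits with the sex label were chosen after seeing the data, as were the fast fibre sum without Myh4 and the mutant mean of Ppargc1a without K320E-skm 2. Python 3.11.15, pandas 2.3.3 and matplotlib 3.10.9 were used for tables and figures.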

Additional observations from a re-analysis of the deposited data

How the results depend on the processing

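Of 346 alternative values, 325 kept their direction and their side of the threshold or moved by less than the spread between replicates. The number of members called by limma was 0 in all settings except with mitochondrial rRNA fragments left out of the total, where it was 1 (Twnk, log2 fold change 0.89). With a filter of 5 FPKM, Twnk, Mgme1, Top1mt, Rnaseh1, Polg2 and Dna2 were not tested, so none of them could be called there. Over the 20 alternatives that tested it, the log2 fold change of Twnk ran from 0.69 to 0.93, with limma adjusted p from 0.0432 to 0.603. Without 1 library at a time it ran from 0.70 to 0.81, with limma adjusted p from 0.161 to 0.603. The genes called over the whole table were 2 as reported, 1 with no filter, 1 with a filter of 5 FPKM, 1 with robust empirical Bayes, 0 among protein-coding genes alone (1450 at an unadjusted p under 0.05), and 1 to 4 without 1 library. The members whose genotypes did not overlap were 2 as deposited and 1 after median-ratio rescaling or without rRNA fragments, since Mgme1 then overlapped (log2 ratio −0.19 and −0.18). They were 2 to 4 without 1 library, where 11.3% to 17.4% of all tested genes did not overlap: 4 without K320E-skm 2 (15.7% of all; Ssbp1 and Top1mt joined, lower) and 4 without wild-type 2 (17.4%; Polg2 and Tfam joined, lower). Log2 fold changes near 0 changed sign when 1 library was left out for Polg (−0.015 to 0.15), Polrmt (−0.044 to 0.080) and Rnaseh1 (−0.0090 to 0.084); the cause was not tested. The log2 ratio of mean FPKM of Dna2, 0.17 as reported, ran from −0.073 to 0.43, below 0 without K320E-skm 2 or wild-type 4. Leaving out 1 library left the differences of Twnk from the median gene at 0.77 to 0.96, from Polg at 0.59 to 0.78 and from Mrpl43 at 0.72 to 0.87.

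The titles number the libraries of both genotypes 1 to 4, but nothing ties a number to a litter or day, and same-numbered libraries deviated together only weakly (r across genes of 0.0233 to 0.156; 6 of 8 libraries correlated best with their own number, which is a hint from the data and not from the design). With the replicate number as a block, limma called 0 members and 2 genes, and the adjusted p of Twnk was 0.218. As paired differences, Twnk was 0.88 above the median gene, 0.67 above Polg and 0.82 above Mrpl43, each with an exact sign-flip p of 0.125, the smallest that 4 pairs allow.

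Depth limits Dna2 and Polg2 most, with as few as 15.7 and 26.5 fragments in a library.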
